A study of Danio rerio with 6 samples.

Results

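The mitochondrial ribosomal protein genes encode the protein part of the mitochondrial ribosome. They were taken from the deposited table of 21589 zebrafish genes by symbol, as every entry whose name starts with mrpl or mrps and a digit, in any case. The rule gave 71 entries under 70 symbols, since MRPS12 names 2 entries. Symbols in capitals are those the deposited table gives in capitals. Of the 71, 46 encode large-subunit proteins and 24 small-subunit proteins by the roles of their mammalian counterparts, among them MRPS30 and mrps18a, which sit in the large subunit of mammalian mitochondrial ribosomes in spite of their names. The last, MRPS36, is named kgd4 in the RefSeq-derived gene table, and the mammalian KGD4 protein is known as a part of the 2-oxoglutarate dehydrogenase complex.

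The study compared the livers of zebrafish larvae that carried a foxn3 transgene with livers of wild-type siblings, both at 7 days post fertilization, by RNA sequencing of total RNA. Each group had 3 libraries, called here transgenic and wild-type libraries 1 to 3 after their titles. foxn3 encodes a forkhead transcription factor, and the series title places it in the control of glucose use by the liver. The promoter, sequence and number of lines of the transgene and the number of larvae pooled per library are not stated in the labels, and the labels do not tie libraries to clutches, so the p-values measure the spread between these libraries, which may be technical.

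Mitochondrial ribosomes translate the few proteins that the mitochondrial genome still encodes, all of them core subunits of the oxidative phosphorylation complexes of the inner membrane. Their RNA is made inside the organelle, but every one of their proteins is encoded in the nucleus, made on cytosolic ribosomes and imported. Some of these proteins descend from the bacterial ribosome, and others were added in the course of mitochondrial evolution. The liver is rich in mitochondria, which there carry out fatty acid oxidation and steps of the urea cycle, amino acid breakdown and glucose synthesis. Sequences of the members were not analysed here.

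The libraries held 11356831, 12550954 and 10891720 counts in the transgenic group and 10884596, 12214349 and 7732478 in the wild-type group. foxn3 had 1983, 2206 and 2540 counts in transgenic libraries and 304, 246 and 322 in wild-type libraries. Its edgeR log2 fold change was 2.74 ± 0.30 (SE), and its adjusted p was 0.11 by edgeR (quasi-likelihood test) and 1.1e-14 by DESeq2, so the label of each library fits its foxn3 level. Hepatocyte markers, 13 entries, made up 8.47% to 9.28% of counts in transgenic and 8.24% to 9.30% in wild-type libraries. Exocrine pancreas markers, 14 entries, made up 0.476%, 1.08% and 0.765% in transgenic and 0.307%, 0.691% and 0.348% in wild-type libraries. Intestine markers reached at most 0.728%, skeletal muscle markers 0.164%, erythrocyte markers 0.0243% and islet markers 0.00954% of counts in a library, and none of the marker entries was at 0 in all 6 libraries. As these are bulk samples, a lower level cannot be told apart between fewer cells of a type and less RNA per cell.

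The mitochondrial ribosomal protein genes were expressed at moderate and closely matched levels. All 71 members passed the filter on low counts, and their mean FPKM (a count divided by exon length and library total) over the 6 libraries had a median of 18.6, with quartiles at 14.6 and 24.8. Of the members, 63 lay between 10 and 35 FPKM. IDs with low counts had already been set aside by the authors, mrpl53 and MRPS22 by reference names among them. The 90th percentile of the mean FPKM was 2.72 times the 10th percentile, against 5.95 times among 82 cytosolic ribosomal protein genes, 22.5 times among the nuclear oxidative phosphorylation genes and 35.8 times among all 19573 genes tested. The median FPKM was 978 for the cytosolic ribosomal protein genes, 95.4 for the nuclear oxidative phosphorylation genes, 2346 for the 13 genes of the mitochondrial genome and 3.30 for all genes tested. The median of the members thus lay above that of all genes tested and far below that of the cytosolic ribosomal protein genes. These are levels, and the lists were not tested against each other. The comparison lists were taken by symbol patterns too, and paralogs or entries with little RNA in liver were not removed from them. Their lowest mean was 3.32 FPKM among cytosolic ribosomal protein genes and 1.63 FPKM among nuclear oxidative phosphorylation genes, against 2.51 FPKM among the members.

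Large-subunit and small-subunit members had like levels, with median mean FPKM of 18.6 and 19.3. Large-subunit members with a bacterial counterpart, 29 entries, had a median of 18.9 FPKM, and the 16 found only in mitochondria had 17.4 FPKM. Among the small-subunit members, the 15 with a bacterial counterpart had a median of 23.6 FPKM and the 8 found only in mitochondria had 16.7 FPKM. MRPS36, 1 large-subunit member and 1 small-subunit member were put in neither class. The order of the members was nearly the same in both groups, with a Spearman correlation of 0.977 between mean FPKM in transgenic and in wild-type libraries across the 71 members, which share libraries and exon lengths. The members are short, with a median exon length of 878 bp, against 2142 bp over all genes tested.

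**Figure D1:**
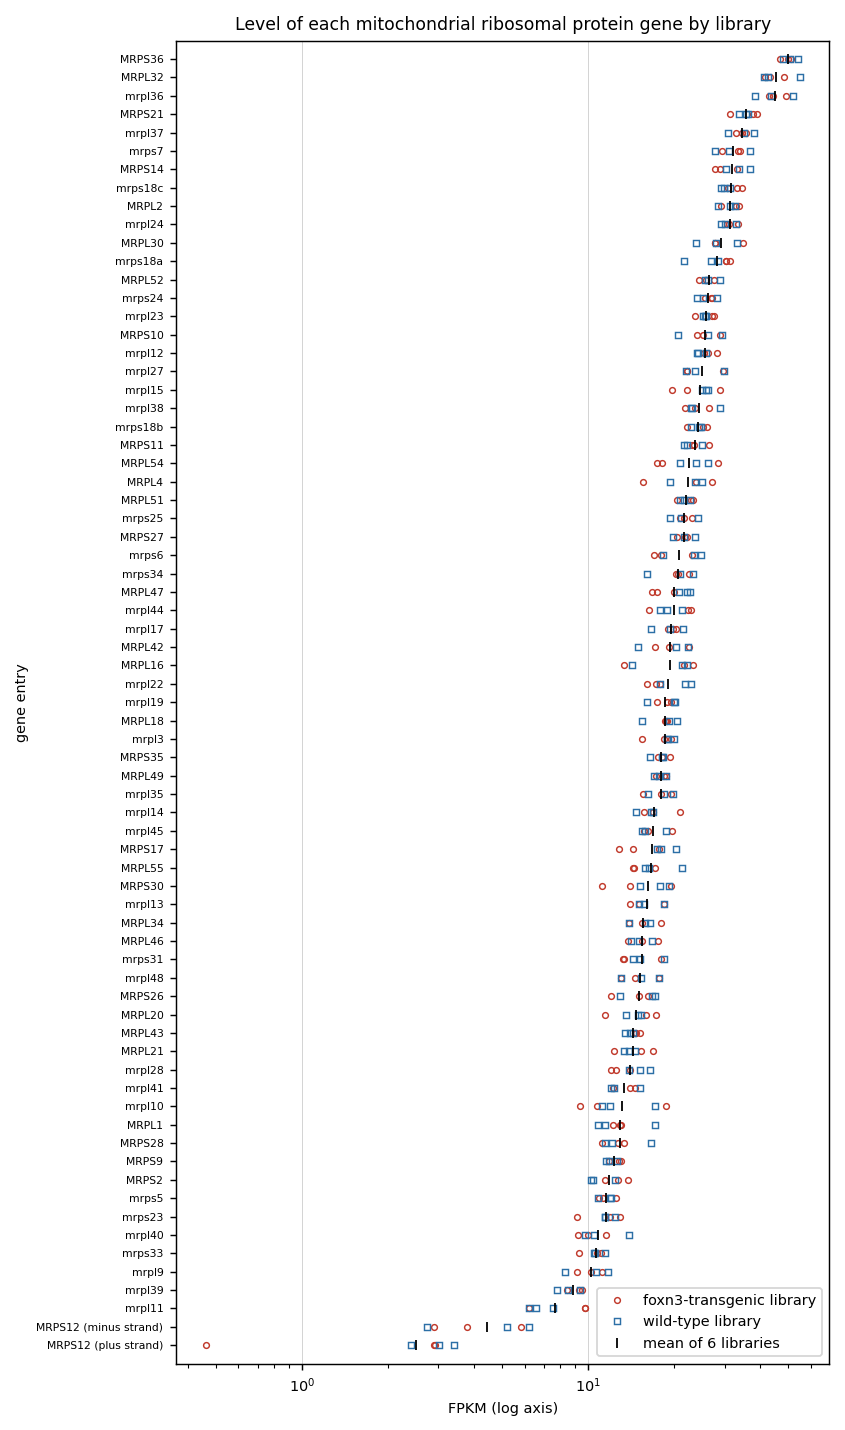
FPKM of each of the 71 members in each foxn3-transgenic and wild-type library, on a log axis, with a tick for the mean of the 6 libraries. The 2 entries of MRPS12 lie apart at the low end, and most other members have a mean between 10 and 35 FPKM.

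The highest member was MRPS36, at 50.0, 51.2 and 46.8 FPKM in transgenic and 47.9, 53.9 and 50.6 FPKM in wild-type libraries. The entry that led the list is thus the 1 that may not be a ribosomal protein. Next came MRPL32, a large-subunit protein that in yeast and mammals is trimmed by the m-AAA protease before it is assembled, at 43.2, 41.6 and 48.3 FPKM in transgenic and 42.6, 54.8 and 41.1 FPKM in wild-type libraries. mrpl36, a small zinc-binding protein of the large subunit, had 44.2, 42.9 and 49.2 FPKM in transgenic and 38.4, 43.7 and 51.9 FPKM in wild-type libraries. The groups overlapped for all 3 genes, and MRPL32 and mrpl36 overlapped each other in level.

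The next 3 in level were MRPS21, a small-subunit protein with a bacterial counterpart, mrpl37, a large-subunit protein found only in mitochondria, and mrps7, a protein of the head of the small subunit whose human gene is mutated in a mitochondrial disease. MRPS21 had 31.4, 38.8 and 37.6 FPKM in transgenic and 35.5, 36.3 and 33.7 FPKM in wild-type libraries. mrpl37 had 32.7, 34.4 and 35.6 FPKM in transgenic and 30.9, 38.0 and 35.2 FPKM in wild-type libraries. mrps7 had 33.5, 29.4 and 33.8 FPKM in transgenic and 27.8, 31.1 and 36.9 FPKM in wild-type libraries. These 3 neighbours did not differ in level beyond their spread between libraries.

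The lowest levels were those of the 2 MRPS12 entries. MRPS12 encodes a protein of the decoding centre of the small subunit. Both entries lie on chromosome 21 of the Zv9 assembly, on the plus strand from 24878314 to 24878743 and on the minus strand from 24941341 to 24945450, as the deposited table gives them. The plus-strand entry had 2, 14 and 12 counts in transgenic and 10, 14 and 10 counts in wild-type libraries. The minus-strand entry had 33, 28 and 49 counts in transgenic and 23, 49 and 37 counts in wild-type libraries. The labels do not say how reads that match both entries were shared between them, so both values are uncertain. Above them came mrpl11, a protein of the factor-binding stalk base described below, and mrpl39, a large-subunit protein found only in mitochondria. mrpl39 had 9.52, 8.45 and 9.27 FPKM in transgenic and 8.51, 7.77 and 9.40 FPKM in wild-type libraries and the groups overlapped.

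None of the 71 members passed the test between transgenic and wild-type livers, and nearly all estimated log2 fold changes were small. edgeR's quasi-likelihood test called 0 of 71 at an adjusted p under 0.05, beside 0% of all 19573 genes tested, and the smallest adjusted p of a member was 1.0. At an unadjusted p under 0.05 it counted 0 of 71 members, beside 2.25% of all genes tested. DESeq2 called 0 members, beside 0.00463% of all genes (1 of 21580, which was foxn3), and limma-voom called 0 members, beside 0% of all genes tested. In the authors' deposited table the log2 ratios of the members ran from -0.19 to 0.30, 52 were positive and the smallest adjusted p was 1.0.

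The size of the differences could be bounded gene by gene, for these libraries only and with no allowance for the number of members. The SE of the edgeR log2 fold change had a median of 0.20 and ran from 0.16 to 0.59. 67 of the 71 log2 fold changes were smaller in size than 0.25, a count that was not made over all genes tested. Members also ranged less between libraries than all genes tested, with median ranges of 0.57 and 0.83 on the log2 CPM scale. The 95% interval from limma-voom lay within ±1 on the log2 scale for 70 members and within ±0.5 for 20. Outside MRPS12, its lowest bound was -0.80, for MRPS30, and its highest was 0.80, for mrpl11. The interval that reached past ±1 was that of the plus-strand MRPS12 entry, from -2.21 to 0.72, while differences of the size seen here were not detectable with 3 libraries a group.

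**Figure D2:**
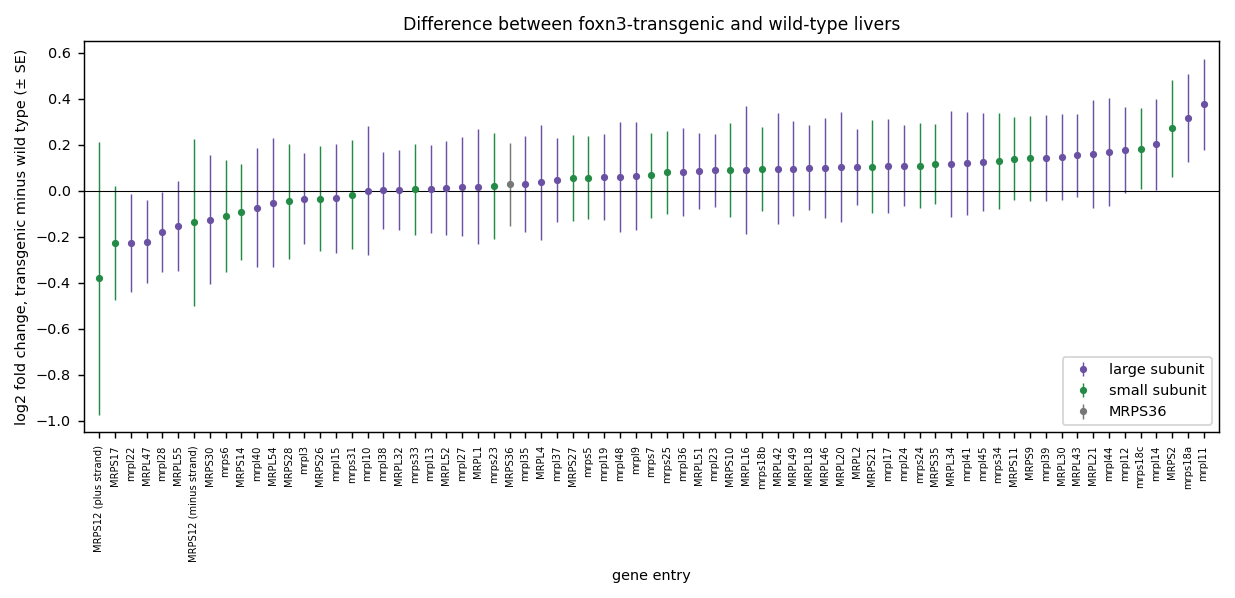
edgeR log2 fold change (transgenic minus wild type) of the 71 members, in order of that change and coloured by subunit, with bars of 1 SE. The members crowd around 0, and the widest bar is that of the plus-strand entry of MRPS12, at -0.38 ± 0.59.

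The largest positive difference was that of mrpl11 (chromosome 14, 31426989 to 31489979, plus strand). Scaled by TMM, which corrects the library totals for differences in composition, it had 13.7, 10.7 and 13.4 CPM (a gene's count relative to its library's scaled total) in transgenic and 8.84, 10.4 and 9.90 CPM in wild-type libraries. The means were 12.6 ± 1.63 CPM in transgenic and 9.71 ± 0.791 CPM in wild-type libraries (SD, n = 3 each). The log2 fold change was 0.38 ± 0.20 (SE), or 1.30-fold, where edgeR's unadjusted p was 0.0884 and its adjusted p 1.0. All 3 transgenic values lay above the wild-type ones, by a narrow gap between transgenic library 2 and wild-type library 2. In FPKM, which uses the unscaled library totals, the groups overlapped, at 9.76, 6.22 and 9.74 in transgenic and 6.22, 7.56 and 6.55 in wild-type libraries.

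mrps18a (chromosome 4, 5515944 to 5518389, plus strand) was the other member whose transgenic values all lay higher. It had 25.5, 31.4 and 25.9 CPM in transgenic and 24.2, 17.9 and 24.5 CPM in wild-type libraries, or means of 27.6 ± 3.32 and 22.2 ± 3.71 CPM (SD, n = 3 each). Its log2 fold change was 0.32 ± 0.19 (SE), where edgeR's unadjusted p was 0.133 and its adjusted p 1.0. Wild-type library 2 was the lowest of the 6, and without it the log2 fold change was 0.18. Only MRPL47 (chromosome 6, 29111456 to 29116325, minus strand), which encodes a large-subunit protein, had all its transgenic values below the wild-type ones. It had 12.1, 15.4 and 14.1 CPM in transgenic and 16.6, 15.7 and 16.2 CPM in wild-type libraries, and its log2 fold change was -0.22 ± 0.18 (SE). Thus 2 of 71 members had groups that did not overlap with the transgenic group higher, beside 3.31% of all genes tested, and 1 of 71 with the transgenic group lower, beside 3.15%, or 3 of 71 in either direction, beside 6.45%.

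The mrps18 name is carried by 3 genes, as relatives of a single bacterial small-subunit protein. In mammals the mrps18a protein sits in the large subunit, and mrps18b and mrps18c sit in the small subunit. mrps18c had 15.6, 17.8 and 16.0 CPM in transgenic and 14.2, 13.5 and 15.9 CPM in wild-type libraries, with a log2 fold change of 0.18 ± 0.18 (SE). mrps18b had 23.9, 33.4 and 27.6 CPM in transgenic and 25, 25.7 and 28.9 CPM in wild-type libraries, with a log2 fold change of 0.09 ± 0.18 (SE). Both pairs of groups overlapped, and transgenic library 2 was the highest library for all 3 relatives.

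The stalk of the large subunit is where translation factors bind, and mrpl10, mrpl11 and mrpl12 build it or its base. mrpl12, the stalk protein, had 45.9, 60.6 and 43.5 CPM in transgenic and 42.5, 41.5 and 48.7 CPM in wild-type libraries, with a log2 fold change of 0.18 ± 0.19 (SE), which was 0.00 without transgenic library 2. mrpl10, which holds mrpl12 on the ribosome, had 26.8, 18.8 and 13.1 CPM in transgenic and 24.8, 15.6 and 18.3 CPM in wild-type libraries, or 19.6 ± 6.84 and 19.6 ± 4.73 CPM (SD, n = 3 each). mrpl14, a large-subunit protein at the face that joins the small subunit, had 10.1, 11.6 and 12.3 CPM in transgenic and 10.3, 8.62 and 10.7 CPM in wild-type libraries, with a log2 fold change of 0.20 ± 0.20 (SE) that was 0.11 without wild-type library 2. The stalk protein and its holder overlapped between groups, unlike mrpl11 in CPM.

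Several members are known from human mitochondrial disease. MRPS2, a small-subunit protein, had 14.4, 21.3 and 15.8 CPM in transgenic and 15.9, 12.7 and 14.2 CPM in wild-type libraries, with a log2 fold change of 0.27 ± 0.21 (SE) that was 0.07 without transgenic library 2. mrps34, a small-subunit protein found only in mitochondria, had 20.5, 25.7 and 22.5 CPM in transgenic and 21.6, 16.0 and 25.4 CPM in wild-type libraries. mrpl44, a large-subunit protein related to RNase III, had 9.71, 16.7 and 13.1 CPM in transgenic and 12.8, 10.4 and 12 CPM in wild-type libraries. The groups overlapped for these 3 genes, and transgenic library 2 was again the highest of the 6 for each. mrpl3, a large-subunit protein, had 20.8, 32.4 and 24.3 CPM in transgenic and 25.6, 26.4 and 27.3 CPM in wild-type libraries, and its log2 fold change was -0.04 ± 0.20 (SE). mrpl45, which in mammals lies at the exit of the peptide tunnel and helps to hold the ribosome at the inner membrane, had 16.2, 24.2 and 15.4 CPM in transgenic and 16.1, 18.3 and 16.7 CPM in wild-type libraries.

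The most negative differences outside MRPS12 were those of MRPS17 and mrpl22, both with bacterial counterparts, then MRPL47, mrpl28 and MRPL55. MRPS17 had 8.11, 13.7 and 8.91 CPM in transgenic and 11.5, 10.8 and 13.8 CPM in wild-type libraries, with a log2 fold change of -0.23 ± 0.25 (SE) that was -0.51 without transgenic library 2. mrpl22 had 11.7, 15.9 and 12.3 CPM in transgenic and 16.1, 12.7 and 17.9 CPM in wild-type libraries, with a log2 fold change of -0.23 ± 0.21 (SE) that was -0.39 without transgenic library 2 and -0.11 without wild-type library 3. The remaining pair, mrpl28 and MRPL55, both of the large subunit, differed by -0.18 ± 0.17 for mrpl28 and -0.15 ± 0.19 for MRPL55 on the log2 scale (SE), and MRPL55 stood at -0.039 when wild-type library 2 was left out and at -0.054 when transgenic library 3 was. In MRPS17 and mrpl22, transgenic library 2 lay among the wild-type values and the other transgenic libraries lay low.

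**Figure D3:**
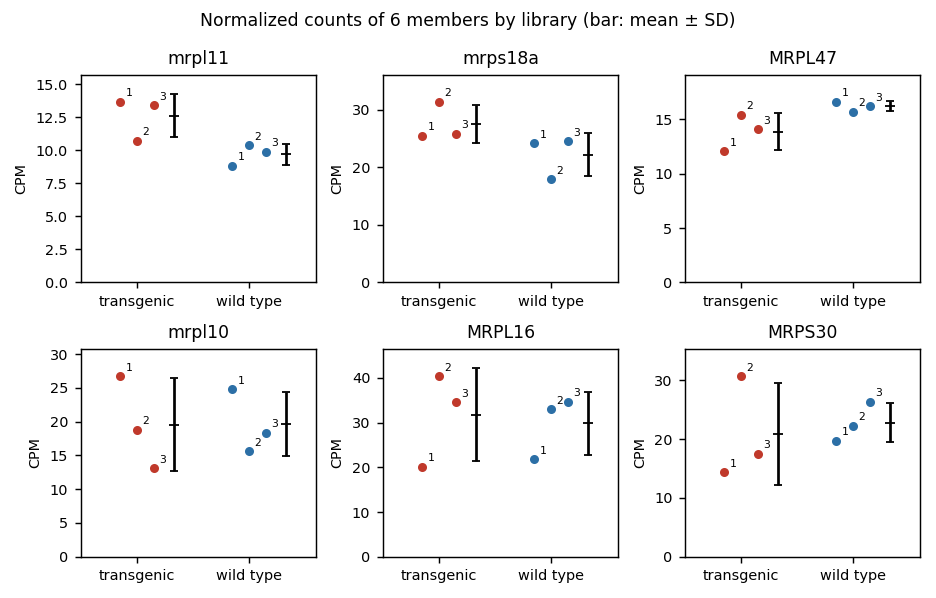
CPM (TMM-scaled) of selected members in each library, with transgenic libraries left of wild-type libraries numbers for the libraries and bars for mean ± SD. Transgenic and wild-type points do not overlap for mrpl11, mrps18a and MRPL47, and they overlap in the other panels.

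The members' log2 fold changes were small but mostly of the same sign. 53 of 71 members had a positive log2 fold change and 18 a negative one, beside 50.6% positive over all genes tested. On library totals without a scaling factor the count was 36 of 71, beside 40.5%. The median log2 fold change of the members was 0.07, against 0.00 over all genes tested. Large-subunit members had a median of 0.08, with 36 of 46 positive, and small-subunit members had 0.06, with 16 of 24 positive. Of the members with a bacterial counterpart 33 of 44 were positive, and of those found only in mitochondria 19 of 24. The unclassed members are in neither count.

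That split depended on single libraries, most of all on transgenic library 2. Without it 17 of 71 members had a positive log2 fold change, beside 46.6% of all genes tested, and the median of the members was -0.07. Without transgenic library 1 the count was 62, beside 48.3% of all genes tested, and without transgenic library 3 it was 58, beside 51.9%. Leaving out wild-type libraries 1, 2 and 3 in turn gave 39, 45 and 55, beside 51.8%, 53.7% and 49.3% of all genes tested. Without wild-type library 1 the share of the members was 54.9%, close to that of all genes tested. Among these 6 runs, the median of the members was negative only without transgenic library 2.

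The median deviation of the members from their own mean log2 CPM was -0.13, 0.27 and -0.03 in transgenic libraries 1, 2 and 3 and -0.09, -0.08 and 0.08 in wild-type libraries 1, 2 and 3. Over all genes tested these medians lay within 0.02 of 0. Transgenic library 2 was the highest of the 6 libraries for 49 of 71 members, or 69.0%, against 21.7% of all genes tested, and it was the lowest for 0 members. The nuclear oxidative phosphorylation genes deviated by -0.17, 0.31 and 0.03 in transgenic and by -0.22, -0.04 and 0.10 in wild-type libraries. The cytosolic ribosomal protein genes deviated by -0.03, 0.23 and -0.13 in transgenic and by -0.18, 0.01 and 0.11 in wild-type libraries. On these scaled values transgenic library 2 was thus the high library in all 3 nuclear lists. For the genes of the mitochondrial genome the same library was also the highest, at 0.19, and transgenic library 1, at 0.12, and wild-type library 1, at 0.11, stood close to it.

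**Figure D4:**
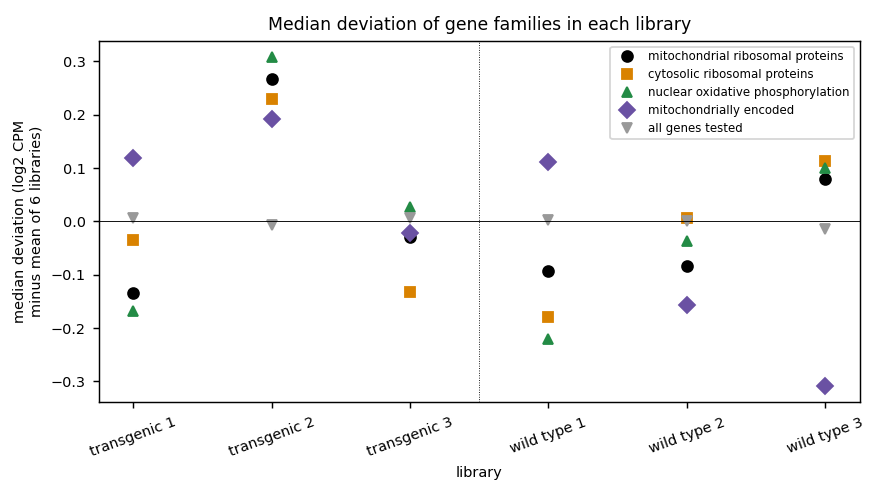
Median deviation of log2 CPM from each gene's mean over the 6 libraries, for the members, the comparison lists and all genes tested, with transgenic libraries left of wild-type libraries. The members' median is highest in transgenic library 2, at 0.27, and lowest in transgenic library 1, at -0.13.

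Transgenic library 2 also had the lowest TMM factor, 0.848, where the other 5 lay between 0.967 and 1.07, and the largest share of exocrine pancreas markers, 1.08%. The part of either in the result was not tested. Before that scaling the members took up 0.135%, 0.144% and 0.145% of all counts in transgenic libraries and 0.137%, 0.143% and 0.146% in wild-type libraries. The summed FPKM of the members was 1365, 1465 and 1482 in transgenic and 1390, 1464 and 1495 in wild-type libraries. On this unscaled view both groups covered the same range, library 1 was the lowest of each group, and transgenic library 2 was the highest library for 13 of the 71 members. Unscaled, the cytosolic ribosomal protein genes took up 7.33%, 7.08% and 6.91% of counts in transgenic and 6.51%, 7.60% and 7.51% in wild-type libraries. The nuclear oxidative phosphorylation genes took up 1.097%, 1.281% and 1.283% against 1.065%, 1.196% and 1.237%. The genes of the mitochondrial genome took up 6.04%, 5.35% and 5.90% against 5.69%, 5.47% and 5.09%. Transgenic library 2 had the highest share in none of these lists.

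**Figure D5:**
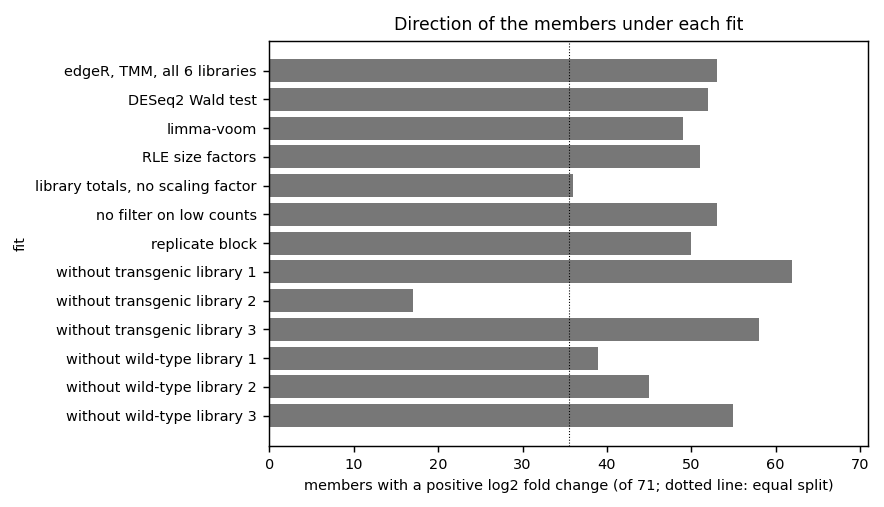
Number of members with a positive log2 fold change, of 71, under each way of computing the comparison. The count is 53 as reported, 36 on library totals and 17 without transgenic library 2.

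Members also varied between the libraries of a group. The widest ranges of log2 CPM between libraries were those of the low-count MRPS12 entries and of MRPS30. MRPS30, a large-subunit protein found only in mitochondria, had 14.4, 30.8 and 17.6 CPM in transgenic and 19.7, 22.3 and 26.4 CPM in wild-type libraries. Its log2 fold change was -0.13 ± 0.28 (SE), and without transgenic library 2 it was -0.53. In that run edgeR's unadjusted p for MRPS30 was 0.041, the smallest of the 71 members, and its adjusted p was 0.999. MRPL16, a large-subunit protein with a bacterial counterpart that was chosen after its values were seen, had 20.2, 40.4 and 34.6 CPM in transgenic and 21.8, 33 and 34.7 CPM in wild-type libraries. Library 1 was the lowest of each group for MRPL16, whereas for mrpl10 it was the highest of each group. The median range between libraries was 0.57 on the log2 CPM scale for the members, against 0.46 for the cytosolic ribosomal protein genes, 0.61 for the nuclear oxidative phosphorylation genes and 0.83 for all genes tested.

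The members are spread over 23 chromosomes, with at most 6 on any of them, on chromosome 19. Many start beside another gene that runs the other way. A head-to-head neighbour was counted where an opposite-strand gene started at, or up to 1000 bp upstream of, the gene's own start. Starts that lay inside the gene were not counted. In the Zv9 coordinates of the deposited table, 24 of 71 members, or 33.8%, had such a neighbour, with a median gap of 320 bp. The same held for 14.6% of cytosolic ribosomal protein genes, 11.6% of nuclear oxidative phosphorylation genes and 5.58% of the whole table. Within 500 bp the shares were 22.5% of the members and 3.55% of the whole table. These shares describe the genes kept in the deposited table, not the full annotation. Neighbours among the IDs that the authors had set aside, 10508 of them for low counts, could not be counted. The shares were computed after the data were seen and they were not tested.

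MRPS11 and MRPL46, a small-subunit and a large-subunit protein, faced each other at 214 bp, the only such pair of members. A further 3 members faced nuclear genes of oxidative phosphorylation. mrpl36 lay 242 bp from ndufs6 and MRPL47 lay 418 bp from ndufb5, both partners encoding complex I subunits, and MRPL20 lay 556 bp from sdhb, which encodes the iron-sulfur subunit of complex II. ndufs6 had a log2 fold change of -0.03, ndufb5 of 0.12 and sdhb of 0.24, and none was called. mrpl40 lay 186 bp from acaa2, an enzyme of mitochondrial fatty acid oxidation, and MRPL32 lay 300 bp from psma2, a proteasome subunit. 6 members overlapped a gene on the opposite strand, among them mrps18b, mrps18c, mrps34, mrpl39 and MRPL16. The authors' notes do not say if counting was by strand, and if it was not, reads of these members and of their antisense partners cannot be told apart.

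Other lists of genes for mitochondrial translation and related mitochondrial functions gave no calls either. These were 7 lists with 111 tested entries, where a gene on more than 1 list counts in each. edgeR called 0 of them in either direction at an adjusted p under 0.05, beside 0% of all 19573 genes tested. The signs counted in these lists are those of the TMM-scaled fit to all 6 libraries. They were not counted again on library totals or without transgenic library 2, on which the members' signs depended. Mitochondrial translation factors had 12 of 14 entries positive and a median log2 fold change of 0.08. Among them tufm, the elongation factor that brings aminoacyl-tRNA to the ribosome, was the highest, at 41.9 ± 1.66 FPKM in transgenic and 41.4 ± 0.811 FPKM in wild-type libraries (SD, n = 3 each). mtif2, the initiation factor, had the smallest p of that list, at 6.86 ± 0.486 FPKM in transgenic and 5.60 ± 0.766 FPKM in wild-type libraries and a log2 fold change of 0.36 ± 0.19 (SE). Transgenic library 2 had the highest CPM of the 6 libraries for most entries of the list, among them tufm, at 90.9, and mtif2, at 21.6. The exceptions were mtif3, MTRF1, guf1 and lrpprc. TSFM, with a log2 fold change of 0.07, had a mean of 11.7 FPKM in transgenic and 11.9 FPKM in wild-type libraries.

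Subunits of the mitochondrial ribosome that carry other names, 7 entries, had 5 positive log2 fold changes and a median of 0.11. aurkaip1, a small-subunit protein, was the highest of them, at 29.7 ± 1.91 FPKM in transgenic and 28.4 ± 0.857 FPKM in wild-type libraries (SD, n = 3 each). ICT1, a large-subunit protein with peptidyl-tRNA hydrolase activity, had the smallest p, at 6.33 ± 1.0 FPKM in transgenic and 5.60 ± 0.648 FPKM in wild-type libraries. In level, aurkaip1 lay well within the range of the members. ICT1 lay at the low end, below all members but the 2 MRPS12 entries, as the lowest large-subunit member had 7.68 FPKM.

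Assembly factors of the mitochondrial ribosome were split, with 12 positive and 11 negative and a median of 0.01. The entry with the smallest p was gtpbp5, a GTPase of large-subunit assembly, at 2.54 ± 0.436 FPKM in transgenic and 3.19 ± 0.581 FPKM in wild-type libraries. Their highest entry, which the table lists without a symbol as an open reading frame gene (ENSDARG00000091079), had 33.4 ± 5.28 FPKM in transgenic and 32.6 ± 5.91 FPKM in wild-type libraries (SD, n = 3 each). Aminoacyl-tRNA synthetases of mitochondria were split too, 11 against 12, with a median of -0.01. Their highest entry, kars, and the entry with the smallest p, hars, also serve the cytosol, at a log2 fold change of 0.14 ± 0.22 for kars and 0.33 ± 0.20 for hars (SE). Genes of mitochondrial transcription and RNA processing had 9 positive and 7 negative entries, led in level by hsd17b10, a subunit of mitochondrial RNase P. clpp, a matrix protease that acts in mitochondrial ribosome assembly in mice, had the smallest p there, with a log2 fold change of 0.29 ± 0.18 (SE).

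Inner membrane insertion and assembly genes had 7 of 10 entries positive and a median of 0.15. The prohibitins phb, at a log2 fold change of 0.20 ± 0.22, and phb2, at 0.33 ± 0.21 (SE), were the highest in level and the smallest in p. A second prohibitin entry, PHB2, differed in the other direction, at 59.6 ± 16.6 FPKM in transgenic and 72.0 ± 2.93 FPKM in wild-type libraries (SD, n = 3 each) and a log2 fold change of -0.18 ± 0.27 (SE). Regulators of mitochondrial biogenesis had 11 of 18 positive and a median of 0.06, with esrra, a nuclear receptor, at the highest level. The single entry of the 7 lists with an unadjusted p under 0.05 was mycb, a Myc transcription factor gene, beside 2.25% of all genes tested. mycb had 11.2, 11.3 and 10.4 FPKM in transgenic and 31.5, 43.2 and 14.3 FPKM in wild-type libraries, or a log2 fold change of -1.35 ± 0.33 (SE), where edgeR's unadjusted p was 0.00226 and its adjusted p 1.0. The groups did not overlap for mycb, and the wild-type libraries were the ones that varied.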

How the data were processed

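Total RNA of zebrafish larval liver was sequenced as stranded single-end libraries, per the labels' protocols. Novoalign, DESeq2 and the Zv9 assembly are named in the submitters' processing notes, with no versions. The deposited counts are reads per gene, unnormalized, per the file headers. The deposited FPKM values divide each count by exon length and library total, per the file headers. The authors' deposited log2 ratios and scores (a score is 10 times the negative log10 of an adjusted p-value) come from their own comparison. The authors set aside 10508 IDs with low counts, with 0 members among them by symbol (mrpl53 and MRPS22 are, by reference names, 2 of them). They also set aside 6 IDs as high, and each share of counts given here is of the 21589 genes in the deposited table. Coordinates are as deposited (Zv9), their first base numbered in a way the headers do not state.

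Counts of the 21589 genes were tested in R 4.3.3 with edgeR 4.0.16 (TMM, filterByExpr by group, glmQLFit and glmQLFTest, transgenic minus wild type, no covariate). Benjamini-Hochberg adjustment covered the 19573 genes that passed the filter, with a two-sided threshold of 0.05. Adjusted p-values of members are edgeR's unless another tool is named. Log2 CPM used a prior count of 2. DESeq2 1.42.0, limma 3.58.1 (voom), other scalings, no filter, a replicate block and leaving out each library were alternatives. The scripts were tested on simulated data. Each SE is the log2 fold change over the root of the F statistic.

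The members and gene lists were chosen with earlier results of these data known. Named members were the 6 highest and 4 lowest in mean FPKM, the 6 largest log2 fold changes in each direction, any with an unadjusted p under 0.05, entries that share a symbol, the mrps18 genes and members of known special role, and the 3 with the widest range between libraries. For each other list, the entry of smallest p and that of highest level were named, with exceptions said in place.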

Additional observations from a re-analysis of the deposited data

How the results depend on the processing

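None of the 71 members was called under any of the 12 alternatives. Over all genes, 1 gene, foxn3, was called by DESeq2 and 1 with the replicate block, and the runs that left out a library called 0 to 1. The count of members with a positive log2 fold change ran from 17 (without transgenic library 2) to 62 (without transgenic library 1), and was 49 to 53 with DESeq2, limma-voom, RLE factors, no filter or the replicate block. The numbers in the titles were not taken as pairs, since the labels do not say that they pair libraries. The correlation of the deviations of same-numbered libraries was 0.34, -0.11 and 0.16 over 19573 genes. The value of 0.34, for the libraries numbered 1, was the highest of any transgenic library with any wild-type library. Transgenic library 2 correlated best with wild-type library 3, at 0.19. With the replicate block 50 members were positive, with a median of 0.06, and 0 were called.

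Of 27 named members, 15 turned sign under at least 1 alternative, 9 of them without transgenic library 2, and the cause was not tested. Over the runs without 1 library, log2 fold changes ran from -0.13 to 0.12 for MRPS36, -0.070 to 0.11 for MRPL32, -0.022 to 0.25 for mrpl36, -0.087 to 0.23 for MRPS21, -0.082 to 0.11 for mrpl37, -0.029 to 0.23 for mrps7, -0.86 to 0.11 for plus-strand and -0.42 to 0.14 for minus-strand MRPS12, -0.53 to 0.078 for MRPS30, -0.035 to 0.29 for mrps34, -0.12 to 0.25 for mrpl45, -0.30 to 0.22 for mrpl10, -0.054 to 0.34 for mrpl44, -0.24 to 0.094 for mrpl3 and -0.056 to 0.19 for mrps18b. The 12 that kept their sign ran from 0.31 to 0.47 for mrpl11, 0.049 to 0.26 for mrpl39, 0.18 to 0.39 for mrps18a, 0.07 to 0.38 for MRPS2, 0.11 to 0.27 for mrpl14, 0.11 to 0.25 for mrps18c, 0.00 to 0.27 for mrpl12, -0.51 to -0.09 for MRPS17, -0.39 to -0.11 for mrpl22, -0.32 to -0.14 for MRPL47, -0.25 to -0.13 for mrpl28 and -0.23 to -0.039 for MRPL55. On library totals MRPS36 stood at -0.042, MRPL32 at -0.060 and mrpl37 at -0.020, and RLE factors put MRPL32 at -0.0012. With counts of 2 to 700 per member and library, 3 libraries a group limit what could be detected.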
